A study of Homo sapiens with 6 samples.

Results

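The genes described here are those of the cellular oxygen-sensing pathway, 10 of the 35993 genes in the deposited table, chosen by their symbols. They are the hypoxia-inducible factor (HIF) subunits HIF1A, EPAS1 and ARNT, the HIF prolyl hydroxylases EGLN1, EGLN2 and EGLN3, and the HIF target genes CA9, ADM, BNIP3 and NDRG1. They were measured by RNA-seq in the established human pancreatic carcinoma line MIA PaCa-2, either left untreated or given 4 µM rhCYGB for 48 h, with 3 libraries per group. rhCYGB is recombinant human cytoglobin, a globin that binds oxygen through its heme, carrying a histidine tag and made in Escherichia coli. Both groups were kept in low-serum medium, and the sources used here describe no low-oxygen step for either group and do not say whether untreated cells received the buffer of the protein. All values therefore come from a single cell line, a single dose and a single time point.

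In cells with enough oxygen, the EGLN enzymes hydroxylate prolines of the HIF alpha subunits, which are then bound by the VHL ubiquitin ligase and degraded. When oxygen falls, hydroxylation slows, the alpha subunit (the product of HIF1A or EPAS1) accumulates, pairs with the beta subunit (the product of ARNT) and binds hypoxia response elements near its target genes. HIF activity is thus set largely at the protein level, which RNA-seq does not measure. Pancreatic ductal carcinoma is known as a poorly perfused, hypoxic tumor, and some targets, EGLN3 and EGLN1 among them, act back on HIF.

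rhCYGB-treated cells had an oxygen-sensing profile that moved in both directions. NDRG1 rose 8.0-fold, ARNT 2.29-fold, EGLN2 1.75-fold, EPAS1 1.62-fold and ADM 1.55-fold, while EGLN1 fell to 0.559 of its untreated level. EGLN3, near the detection limit, had 13, 11 and 16 counts in untreated and 7, 0 and 0 in rhCYGB libraries. HIF1A, the most abundant member, was 1.10-fold higher with TMM scaling and slightly lower with total counts or upper-quartile factors, and CA9 and BNIP3 had no read in any library. Of the 10 genes, 8 had enough counts for edgeR's quasi-likelihood test, and all 8 of these passed at a Benjamini-Hochberg adjusted p under 0.05, 6 of them higher and 2 lower in rhCYGB-treated cells. Most of the transcriptome differed between the groups: 77.6% of the 14728 genes tested passed the same test, 39.0% higher and 38.6% lower. EGLN3 entered the test only through its untreated libraries, where it is higher. It thus counts in this total, and among the 2-fold calls below, by construction of the filter. The median log2 fold change of the 8 was 0.66, and all genes tested had a median of -0.0046 and a 75th percentile of 0.56. With a 2-fold change also required, NDRG1 and ARNT were called higher and EGLN3 lower, 3 of 8, where 27.1% of all genes tested were called, 12.4% higher and 14.7% lower. Of the 3998 genes called at 2-fold, 45.9% were higher, and of the 4114 called when total counts were taken as library sizes, 33.9%. The groups did not overlap in CPM (read counts relative to library size, scaled by edgeR's TMM factors) for any of the 8, as for 79.5% of all genes tested. With so large a background, the counts are given as a description, and what follows takes each gene in turn.

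**Figure D1:**
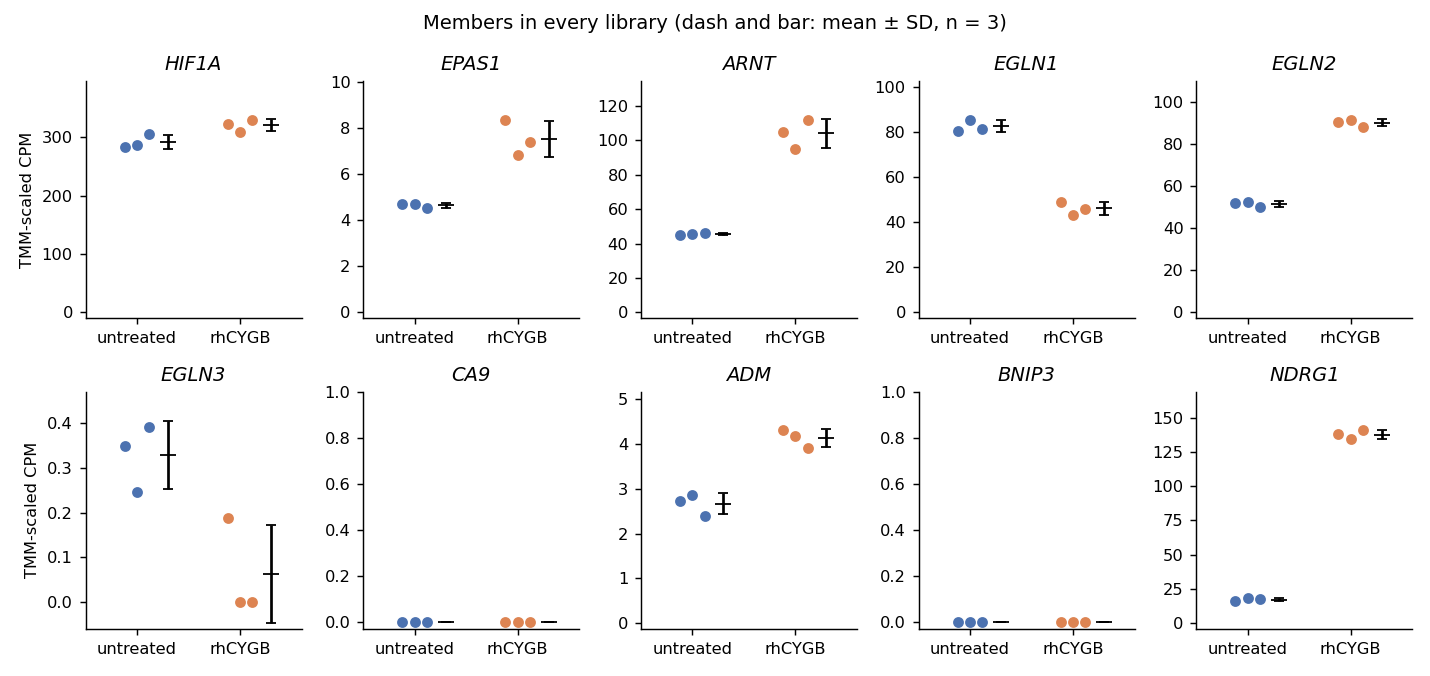
TMM-scaled CPM (y axis, from about 0, with its own scale in each panel) of the 10 genes in 3 untreated and 3 rhCYGB libraries. Each point is a library, and the black dash and bar are the mean and SD. NDRG1, ARNT, EGLN2, EPAS1 and ADM lie higher and EGLN1 lower in every rhCYGB library, HIF1A lies close in both groups, EGLN3 is below 0.4 CPM throughout, and CA9 and BNIP3 are at 0.

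The libraries held between 34838399 and 42271299 gene-assigned read counts, so that a count of 3, the limit that 0 counts allow, corresponded to 0.0669 to 0.0902 CPM. As for markers of the line, KRT8, KRT18, KRT19 and VIM were abundant, with 11761 to 12160 CPM summed over the 7 identity genes in untreated and 14501 to 15222 in rhCYGB libraries, while EPCAM and CDKN2A (homozygously deleted in MIA PaCa-2) had 0 counts and CDH1 had 2 counts in a single library. The higher sum came nearly all from VIM, whose mean went from 8013 to 11744 CPM. KRT8 fell from 2085 to 1190 CPM and KRT19 from 260 to 171 CPM, and KRT18 did not pass the test (edgeR, adjusted p = 0.315). Of 14 markers of other cell types, 7 (PTPRC, CD3E, PECAM1, DCN, LUM, INS and PRSS1) were at 0 in every library. The summed level of the 14 was 262 to 265 CPM in untreated and 17.2 to 21.2 CPM in rhCYGB libraries, nearly all of it from CDH5, COL1A2 and COL3A1, and without these 3 it was 0.441 to 0.698 and 0.377 to 0.461 CPM. The part of these markers in the results was not tested. In such bulk RNA, fewer cells of a type and less RNA per cell cannot be told apart. The CYGB transcript itself had 0 counts in every library.

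HIF1A encodes the alpha subunit that is found in nearly all cells, and lies on chromosome 14 at 62162231 to 62214977 in the deposited annotation, whose genome build is not named. Its counts were 10517, 12874 and 12440 in untreated and 11997, 10279 and 12162 in rhCYGB libraries. Scaled to CPM these were 282, 287 and 305 against 323, 309 and 330, so that the groups were close but separate. The difference was a log2 fold change of 0.14 ± 0.04 (SE, n = 3 per group; edgeR, adjusted p = 6.01e-03), and 87.4% of all genes tested changed by more. This direction depended on the scaling: with library sizes taken as total counts the log2 fold change was -0.03 (adjusted p = 0.517) and with upper-quartile factors -0.0046 (adjusted p = 0.917). Total counts moved the median of all genes tested to -0.17 and upper-quartile factors to -0.15, so HIF1A stayed above the median gene under each scaling. On the FPKM scale of the authors (fragments relative to transcript length and mapped reads) its level was 66.3, 67.7 and 72.8 in untreated and 68.6, 63.7 and 71.0 in rhCYGB libraries, and there the groups overlapped. The antisense genes HIF1A-AS1, HIF1A-AS2 and HIF1A-AS3 overlap HIF1A, and none had more than 7 counts in a library.

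EPAS1 encodes the other main alpha subunit, known from endothelium, kidney and clear cell renal carcinoma, and lies on chromosome 2 at 46524546 to 46613836. It was a low transcript in these cells, with counts of 176, 211 and 185 in untreated and 311, 227 and 273 in rhCYGB libraries. In CPM it reached 4.72, 4.71 and 4.54 in untreated and 8.37, 6.82 and 7.41 in rhCYGB libraries. Every rhCYGB library was thus above every untreated one, with a log2 fold change of 0.69 ± 0.12 (SE; adjusted p = 8.05e-05 by edgeR). Per transcript length HIF1A remained the dominant alpha subunit: its FPKM was 78.4 to 88.2 times that of EPAS1 in untreated and 50.5 to 59.4 times in rhCYGB libraries.

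ARNT encodes the beta subunit shared by both alpha subunits and by the aryl hydrocarbon receptor, and lies on chromosome 1 at 150782189 to 150849075. Its counts were 1679, 2035 and 1870 in untreated and 3893, 3158 and 4126 in rhCYGB libraries. In CPM these were 45.1, 45.4 and 45.9 against 105, 94.9 and 112, a tight untreated group and a wider rhCYGB group far above it. ARNT rose by 1.19 ± 0.06 on the log2 scale (SE; edgeR, adjusted p = 2.34e-11), with a 95% interval of 2.11 to 2.48 for the fold change, and 20.7% of all genes tested changed by more. The FPKM of HIF1A was 7.47 to 7.94 times that of ARNT in untreated and 3.52 to 3.88 times in rhCYGB libraries, so that the RNA of the beta subunit drew nearer to that of the alpha subunit. ARNT2, a paralog that can take its place, was low in both groups, with 20, 35 and 33 counts in untreated and 28, 12 and 17 in rhCYGB libraries, and did not pass the test (log2 fold change -0.43 ± 0.37 SE, edgeR adjusted p = 0.295). HIF3A, the remaining alpha subunit gene, had 0 counts in every library.

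**Figure D2:**
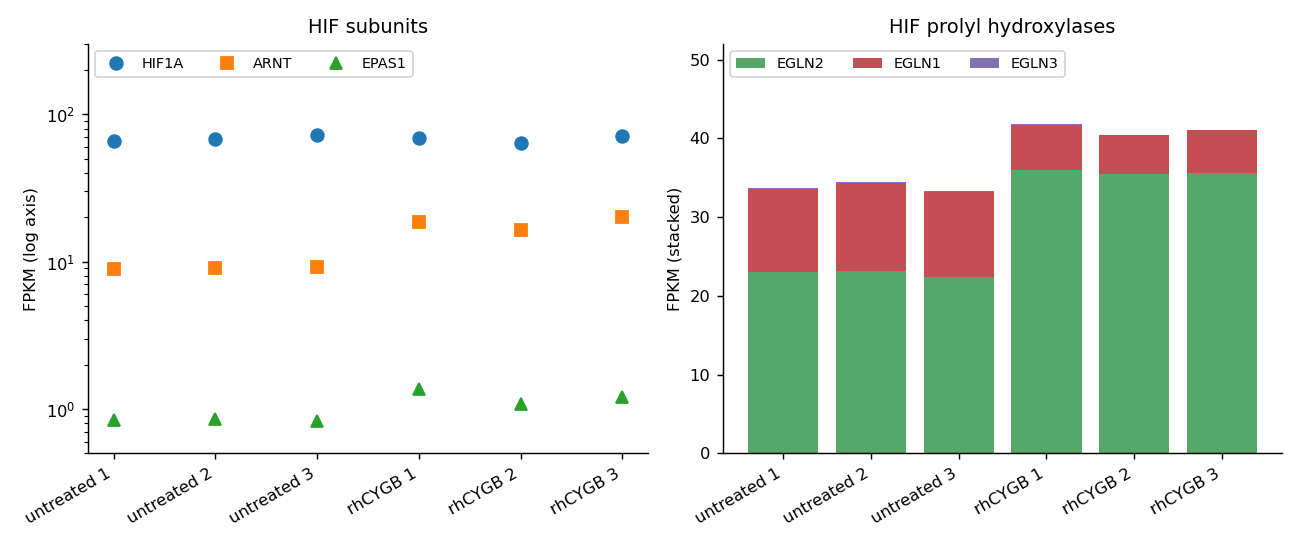
FPKM per library (x axis, 3 untreated then 3 rhCYGB libraries) of the HIF subunits on a log axis (left) and of the HIF prolyl hydroxylases as stacked bars from 0 (right). HIF1A stays between 63.7 and 72.8 FPKM, ARNT and EPAS1 are higher with rhCYGB, and within the hydroxylases EGLN2 makes up a larger and EGLN1 a smaller part of the bar in each rhCYGB library.

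The hydroxylases moved apart. EGLN1 (also called PHD2), the hydroxylase that sets HIF1A protein in most cells at normal oxygen, fell, and EGLN2 (PHD1) rose, so that the make-up of the enzyme family at the RNA level shifted. EGLN1, on chromosome 1 at 231499497 to 231560790, had 3003, 3830 and 3319 counts in untreated and 1824, 1443 and 1685 in rhCYGB libraries. In CPM this was 80.6, 85.5 and 81.4 against 49.1, 43.4 and 45.7. The pseudogene EGLN1P1 had at most 8 counts in a library. The lowest untreated library was well above the highest rhCYGB library, and the log2 fold change was -0.84 ± 0.05 (SE; edgeR, adjusted p = 6.20e-10), with a 95% interval of 0.518 to 0.603 for the ratio to untreated cells.

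EGLN2, on chromosome 19 at 41305096 to 41314339, had 1947, 2344 and 2040 counts in untreated and 3356, 3050 and 3255 in rhCYGB libraries. In CPM this was 52.3, 52.3 and 50.02 against 90.3, 91.7 and 88.3, among the tightest groups of the set. Its log2 fold change was 0.81 ± 0.04 (SE; edgeR, adjusted p = 1.15e-10). The read-through gene RAB4B-EGLN2 overlaps EGLN2 and can share its reads. It had 0, 93 and 187 counts in untreated and 63, 0 and 98 in rhCYGB libraries, and adding these to EGLN2, an alternative chosen after seeing the data, left a log2 fold change of 0.77 (adjusted p = 1.37e-10).

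EGLN3 (PHD3), usually the most hypoxia-inducible of the hydroxylases, was barely detected on chromosome 14 at 34393433 to 34420280. It had 13, 11 and 16 counts in untreated and 7, 0 and 0 in rhCYGB libraries, so it entered the test only through its untreated libraries. Pooled over libraries, 40 counts against 7 gave a depth-corrected ratio of 4.99 (95% interval 2.21 to 13.2, counting error only). All 7 came from rhCYGB replicate 1, and the interval leaves out the spread between libraries. The filter kept EGLN3 through the group where it is higher, so the ratio and the fit are given as a description. The fitted log2 fold change was -2.28 ± 0.82 (SE; edgeR, adjusted p = 0.0198). This call was lost without untreated replicate 1 (adjusted p = 0.0514), untreated replicate 3 (0.0676), rhCYGB replicate 2 (0.0628) or rhCYGB replicate 3 (0.0772), with no filter on low counts (0.0548) and with DESeq2 (0.0601), and without rhCYGB replicate 1, which leaves the rhCYGB group at 0, the log2 value became -6.67, which rests on the prior count.

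Summed over the 3 hydroxylases, EGLN2 contributed 68.4%, 67.3% and 67.2% of the FPKM in untreated and 86.0%, 87.7% and 86.7% in rhCYGB libraries, and EGLN1 31.2% to 32.5% and 12.3% to 13.8%. The log2 ratio of EGLN2 to EGLN1 FPKM was 1.08 ± 0.05 (SD, n = 3) in untreated and 2.73 ± 0.10 in rhCYGB libraries, a 3.13-fold larger ratio without overlap. The ratio was formed after both genes had been seen to move apart, and it is given as a description. The summed FPKM of the family was 33.3 to 34.4 in untreated and 40.4 to 41.8 in rhCYGB libraries. It was thus higher with rhCYGB although EGLN1 was lower.

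The core of the hypoxia response element was searched as ACGTG or GCGTG on both strands in RefSeq promoter windows of 300 bases (250 before and 50 after the start, GRCh38.p14), which cover 9 of the 10 genes in 11 windows. At least 1 match was present in 7 of these 11 windows (63.6%) and in 48.4% of all 35116 windows. Both motifs hold a CG pair, and the shares were not adjusted for the CG content of the windows. The share of all windows with fewer CG pairs ran from 18.2% for the second HIF1A window to 98.0% for that of BNIP3. The 250 bases upstream of both hydroxylases that moved in opposite directions are shown to let the elements be compared, in lower case with each match in capitals.
EGLN1 (chr1:231422288-231422537, minus strand): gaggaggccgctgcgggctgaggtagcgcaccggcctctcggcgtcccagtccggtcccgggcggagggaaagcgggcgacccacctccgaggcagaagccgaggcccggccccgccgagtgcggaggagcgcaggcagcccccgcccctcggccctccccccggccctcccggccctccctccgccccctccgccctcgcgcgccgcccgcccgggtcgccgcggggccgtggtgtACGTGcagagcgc
EGLN2 (chr19:40798941-40799190, plus strand): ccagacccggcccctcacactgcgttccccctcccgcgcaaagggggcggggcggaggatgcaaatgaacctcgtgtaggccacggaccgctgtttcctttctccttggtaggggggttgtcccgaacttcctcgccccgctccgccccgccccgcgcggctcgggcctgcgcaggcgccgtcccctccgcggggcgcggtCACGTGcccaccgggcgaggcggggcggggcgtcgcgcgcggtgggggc
The EGLN1 window held a single ACGTG, 13 bases before the start. In the first EGLN2 window, the palindrome CACGTG began 49 bases before the start and was counted on both strands, so its 2 matches overlap. The window of the other EGLN2 start held none. The windows of ARNT and EGLN3 held no match, and those of EPAS1 and ADM held 1 GCGTG each, 117 and 101 bases before the start. Of the windows of HIF1A, the first had a GCGTG 204 bases before the start and the second had no match. Sequence beyond 250 bases before and 50 after the start was not searched, so a missing match does not show that a gene lacks an element.

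Among the 4 target genes, NDRG1 and ADM were higher and CA9 and BNIP3 were not detected. NDRG1, a stress-responsive gene known as a metastasis suppressor, lies on chromosome 8. Its counts were 600, 808 and 711 in untreated and 5120, 4479 and 5193 in rhCYGB libraries, that is 16.1, 18.03 and 17.4 CPM against 138, 135 and 141 CPM. The groups lay far apart. NDRG1 rose by 3.00 ± 0.05 on the log2 scale (SE; edgeR, adjusted p = 5.82e-16), with a 95% interval of 7.42 to 8.63 for the fold change, and took rank 158 among the 14728 genes ordered by rise. Only 2.05% of all genes tested changed by more in either direction. Per length it went from the fifth to the second most abundant member, at 5.29 ± 0.32 FPKM (SD, n = 3) in untreated and 38.0 ± 1.7 in rhCYGB libraries.

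ADM encodes adrenomedullin, a vasodilator peptide that many hypoxic tumors secrete, and lies on chromosome 11 at 10326620 to 10328944. It had 102, 128 and 98 counts in untreated and 160, 139 and 144 in rhCYGB libraries, or 2.74, 2.86 and 2.40 CPM against 4.31, 4.18 and 3.91 CPM. Both groups were low and narrow, and they did not overlap. The log2 fold change was 0.63 ± 0.15 (SE; edgeR, adjusted p = 1.74e-03), and 47.1% of all genes tested changed by more.

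CA9 encodes a membrane carbonic anhydrase that is widely used as a marker of tumor hypoxia (chromosome 9, 35673925 to 35681156), and BNIP3 encodes a mitochondrial protein that promotes mitophagy (chromosome 10, 133781187 to 133795517). Each had 0 counts in all 6 libraries, so that levels above 0.0669 to 0.0902 CPM would have been detectable and no fold change can be given. The pseudogene BNIP3P1 was also at 0 and BNIP3P5 had at most 10 counts in a library. BNIP3L, the closest paralog of BNIP3, was well expressed, with 3654, 4350 and 4095 counts in untreated and 5364, 4619 and 5315 in rhCYGB libraries, and rose by 0.53 ± 0.04 on the log2 scale (SE; edgeR, adjusted p = 3.57e-09). The upstream sequences of the undetected pair are printed because each holds the motif that their class of target is known for.
CA9 (chr9:35673678-35673927, plus strand): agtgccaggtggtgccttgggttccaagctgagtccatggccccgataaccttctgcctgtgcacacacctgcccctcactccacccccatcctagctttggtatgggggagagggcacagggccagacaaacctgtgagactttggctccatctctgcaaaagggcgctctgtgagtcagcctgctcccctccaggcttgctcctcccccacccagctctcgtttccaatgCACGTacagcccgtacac
BNIP3 (chr10:131981924-131982173, minus strand): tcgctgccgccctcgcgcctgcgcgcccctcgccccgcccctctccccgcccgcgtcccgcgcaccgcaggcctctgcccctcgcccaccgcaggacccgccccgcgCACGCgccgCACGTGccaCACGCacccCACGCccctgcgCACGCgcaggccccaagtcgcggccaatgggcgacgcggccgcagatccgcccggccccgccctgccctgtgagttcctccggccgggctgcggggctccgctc
CA9 had a single match, ACGTG on the opposite strand, 18 bases before the start. BNIP3 had 6 matches between 143 and 104 bases before the start, 2 of which overlap in a CACGTG, and 0.923% of all windows held 6 or more. Its window also held 48 CG pairs, and 98.0% of all windows held fewer, so this share does not single out the motif from CG content. A match does not show that the element is bound, and absent reads do not show why a gene was not detected.

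**Figure D3:**
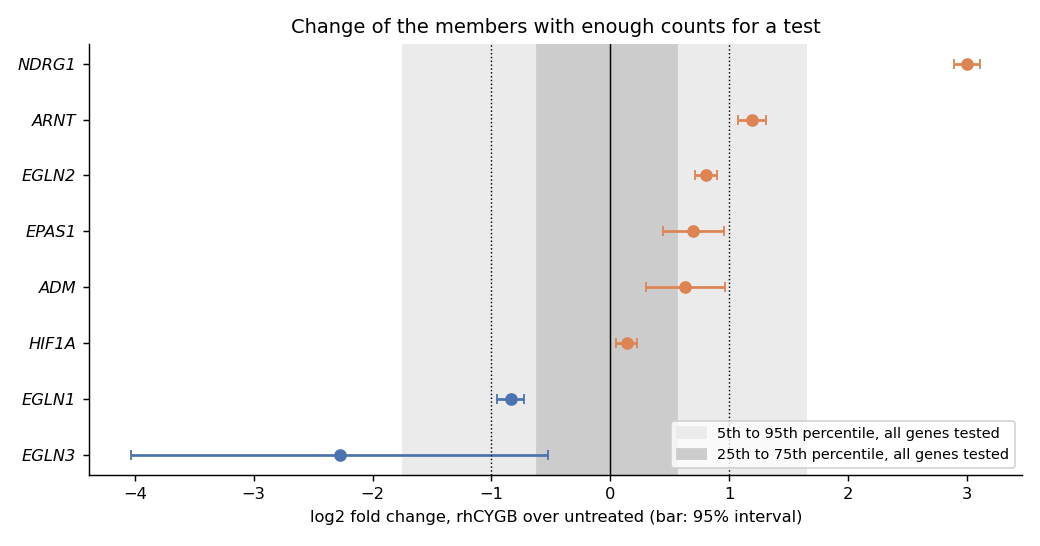
Log2 fold change of rhCYGB over untreated cells (x axis) for the 8 members with enough counts, with 95% intervals from the edgeR fit. The dark and light bands hold the middle 50% and 90% of all genes tested (-0.62 to 0.56 and -1.75 to 1.65), and the dotted lines mark a 2-fold change. NDRG1 and EGLN3 lie outside the light band, and HIF1A lies inside the dark band. EGLN3 has a wide interval and passed the filter only through its untreated libraries, where it is higher.

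Ordered by mean FPKM, the untreated libraries ranked HIF1A (68.9), EGLN2 (22.9), EGLN1 (10.8), ARNT (9.01), NDRG1 (5.29), ADM (1.66), EPAS1 (0.840) and EGLN3 (0.105), with CA9 and BNIP3 at 0. No neighbours down to EGLN3 overlapped between libraries. In rhCYGB libraries the order was HIF1A (67.8), NDRG1 (38.0), EGLN2 (35.7), ARNT (18.4), EGLN1 (5.40), ADM (2.29), EPAS1 (1.21) and EGLN3 (0.0182). There NDRG1 (36.1 to 39.5) and EGLN2 (35.4 to 36.0) did not overlap. The gap between their nearest libraries was smaller than the SD of NDRG1 (1.73), while their means lay further apart than that. In the same libraries EGLN3 overlapped with the undetected pair.

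The transcript table split the 10 genes into 24 annotated transcripts, whose counts summed to the gene count exactly in every library. How reads are shared between overlapping transcripts is an estimate of the authors' assembler, and it varied between libraries of a group. Of 17 transcripts with enough counts, 8 passed at an adjusted p under 0.05 by edgeR, where 29.9% of 32577 transcripts tested passed. Of these 8, 6 were also at least 2-fold higher and none lower, where 16.9% of transcripts tested were called at 2-fold and 8.62% were called higher. The count at 2-fold was 3 without untreated replicate 2 and 1 with the replicate number as a block. The 6 were 3 of ARNT and 3 of NDRG1. Among them, NM_001135242 of NDRG1 had 0, 4 and 4 counts in untreated and 27, 50 and 26 in rhCYGB libraries. NM_001135242 and NM_001258433, also of NDRG1, passed the filter only through the rhCYGB libraries, where they are higher. Both thus count in the 8 and in the 6 by construction of the filter. EGLN1, EPAS1 and ADM were annotated with a single transcript each. In the fit over transcripts EGLN1 passed (adjusted p = 1.90e-04), while EPAS1 (0.0518) and ADM (0.155), with the same counts as in the gene table, did not. NM_080732 held between 99.66% and 100% of the EGLN2 counts in each library.

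HIF1A was almost entirely NM_001530, at 95.6% to 97.2% of its counts in untreated and 92.1% to 93.2% in rhCYGB libraries. The shorter variant NM_181054 had 226, 250 and 543 counts in untreated and 612, 738 and 890 in rhCYGB libraries, a log2 fold change of 1.25 ± 0.40 (SE) that did not pass the test over all transcripts (edgeR, adjusted p = 0.0680). NDRG1 was mainly NM_006096, at 91.3% to 100% of counts in untreated and 87.7% to 96.0% in rhCYGB libraries, and this transcript rose 7.23-fold (edgeR, adjusted p = 1.09e-05). NM_001258433 of NDRG1 had 0 counts in every untreated library and 21, 26 and 30 counts in the rhCYGB libraries, where the gene as a whole was higher too. ARNT had no dominant transcript. NM_001668 held 40.7%, 45.2% and 23.4% of its counts in untreated and 21.9%, 22.1% and 48.1% in rhCYGB libraries, so the split differed as much within a group as between groups. NM_178427 of ARNT (2.91-fold, edgeR adjusted p = 0.0131) and NM_001197325 (2.89-fold, adjusted p = 0.0178) were called higher.

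**Figure D4:**
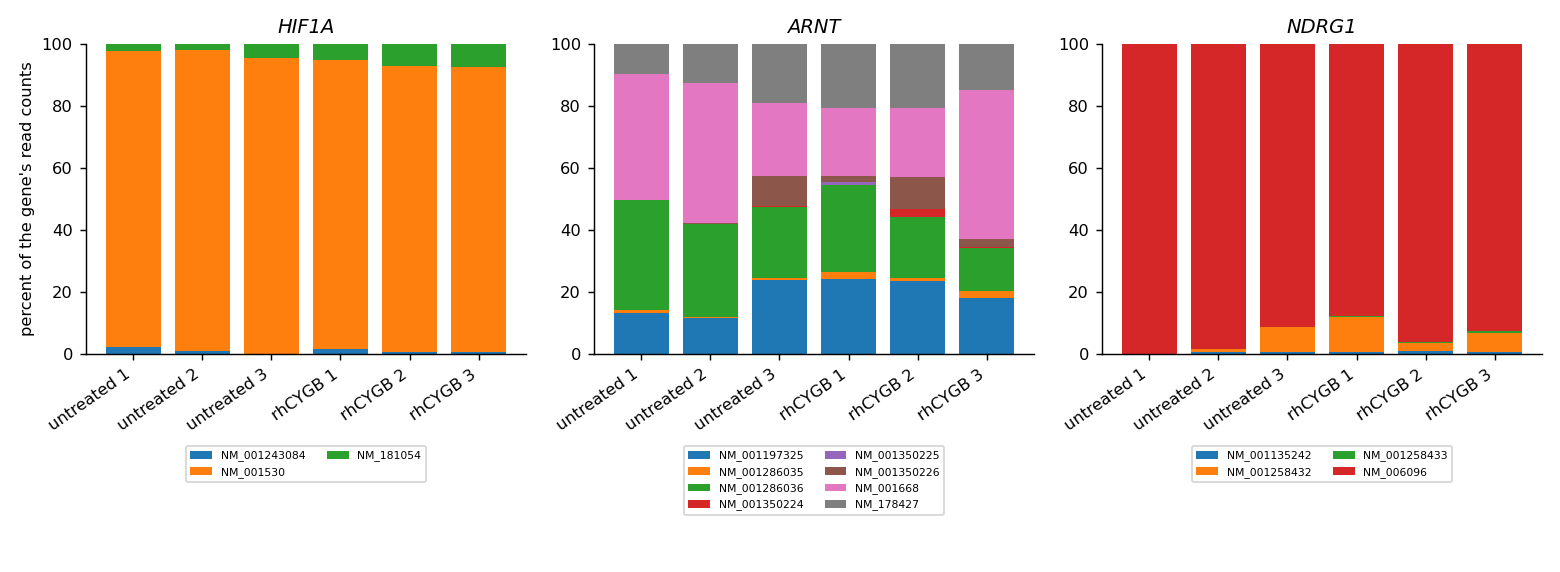
Share of each gene's read counts assigned to its annotated transcripts (stacked bars, y axis in percent from 0 to 100) in 3 untreated and 3 rhCYGB libraries. HIF1A and NDRG1 are each made up mostly of 1 transcript in every library, whereas the shares within ARNT vary between libraries of the same group.

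Among 17 further genes that control HIF, 16 were tested, of which 6 passed higher and 5 lower, 4 and 2 of them by at least 2-fold, where 39.0% and 38.6% of all genes tested passed in each direction and 12.4% and 14.7% did so at 2-fold. The list had a median log2 fold change of 0.02, which was -0.14 when total counts were taken as library sizes. The ubiquitin ligases SIAH1 and SIAH2, which target EGLN proteins for degradation, rose by 2.20 ± 0.08 and 1.62 ± 0.04 (log2, SE). SIAH1 had 737, 663 and 762 counts in untreated and 3142, 2635 and 2933 in rhCYGB libraries, and SIAH2 1317, 1590 and 1376 against 4043, 3583 and 3853 (edgeR, adjusted p = 1.38e-12 and 6.55e-14). The coactivators of HIF differed in extent, with CREBBP at 1.04 ± 0.07 and EP300 at 0.37 ± 0.06, both higher. CITED2, which competes with HIF for these coactivators, rose by 1.15 ± 0.04, from 117 to 260 CPM.

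Genes of the VHL ubiquitin ligase moved little except for RBX1, its RING subunit. VHL, which recognises hydroxylated HIF, was at 55.3 and 58.6 CPM (log2 fold change 0.08 ± 0.05 SE, edgeR adjusted p = 0.115), and the adaptors ELOB and ELOC did not pass either (adjusted p = 0.310 and 0.88). The scaffold CUL2 fell by 0.26 and RBX1 by 1.31 on the log2 scale, RBX1 from 1150, 1263 and 1227 counts to 440, 413 and 427. HIF1AN, the asparagine hydroxylase that blocks coactivator binding, fell by 0.47, and P4HTM, a hydroxylase of the endoplasmic reticulum membrane, by 1.34 on the log2 scale. LIMD1, a scaffold that brings EGLN1 and VHL together, fell by 0.46, and SENP1, which removes SUMO from HIF1A, rose by 0.57. The deubiquitinase USP20 did not pass (edgeR, adjusted p = 0.941).

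The known glycolytic targets of HIF moved in both directions. All 24 were tested, 8 passed higher and 14 lower, 4 and 6 of them by 2-fold or more, where 39.0% and 38.6% of all genes tested passed in each direction and 12.4% and 14.7% did so at 2-fold. Their median log2 fold change was -0.25, and -0.41 with total counts as library sizes, which moved the median of all genes to -0.17. HK2, the inducible hexokinase, rose by 3.42 ± 0.04 (log2, SE), from 60.6 to 648 CPM, and SLC2A1, the main glucose transporter of tumor cells, by 2.56 ± 0.05, from 70.7 to 418 CPM. PDK1, which restrains pyruvate entry into mitochondria, rose by 1.63 and ENO2 by 1.49. In the opposite direction, PDK3 fell by 3.18, from 18.8 to 2.07 CPM, PGAM1 by 1.48, the glycogen branching enzyme GBE1 by 1.47 and PKM, the last enzyme of glycolysis, by 1.12.

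Of 47 other HIF targets, 40 were tested, 24 passed higher and 12 lower, 12 and 3 of them by at least 2-fold, and the median log2 fold change was 0.33, or 0.17 with total counts and 0.12 with limma on log2(FPKM + 1). VEGFA, the classical angiogenic target, had 2244, 2753 and 2141 counts in untreated and 29064, 25633 and 29756 in rhCYGB libraries, a rise of 3.76 ± 0.05 (log2, SE; edgeR, adjusted p = 1.63e-16). DDIT4, an inhibitor of mTORC1, rose by 3.51 ± 0.05, from 79.7 to 909 CPM. RORA had 0, 13 and 12 counts in untreated and 90, 89 and 106 in rhCYGB libraries, and NDUFA4L2 0, 0 and 6 against 25, 25 and 15. EDN1 had 20, 6 and 18 counts in untreated and 49, 39 and 68 in rhCYGB libraries. RORA, NDUFA4L2 and EDN1 are among the 24 called higher and the 12 at 2-fold. They passed the filter only through the rhCYGB libraries, where they are higher, and no fold change is given for them. They also count in the totals over both target lists given below. Those that fell by 2-fold or more were PLOD2 (-1.40) and LOXL2 (-1.30), which modify collagen, and CA12 (-1.30), a membrane carbonic anhydrase like CA9. Over both target lists together, which hold 71 genes, 32 of 64 tested were higher and 26 lower, 16 and 9 by at least 2-fold, where 39.0% and 38.6% of all genes tested passed in each direction and 12.4% and 14.7% did so at 2-fold.

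The relatives and partners of the members gave a mixed picture as well. Of 13, 7 were tested, 3 passed higher and 3 lower, where 39.0% and 38.6% of all genes tested did. The 7 had a median log2 fold change of 0.41, or -0.072 where at least 10 counts in every library were required. In the NDRG family, NDRG4 rose by 3.83 ± 0.06 (log2, SE), from 5.82 to 82.7 CPM, while NDRG2 fell by 2.22 ± 0.16, from 10.96 to 2.36 CPM, so that NDRG1 and NDRG2 moved in opposite directions. ADM2, a peptide related to ADM, had 6, 0 and 7 counts in untreated and 126, 108 and 104 in rhCYGB libraries. It is among the 3 called higher and passed the filter only through the rhCYGB libraries, so no fold change is given. CALCRL and RAMP2, which together form a receptor for adrenomedullin, had at most 9 and 6 counts in a library and were not tested, and RAMP3, which can replace RAMP2, was at 0.

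**Figure D5:**
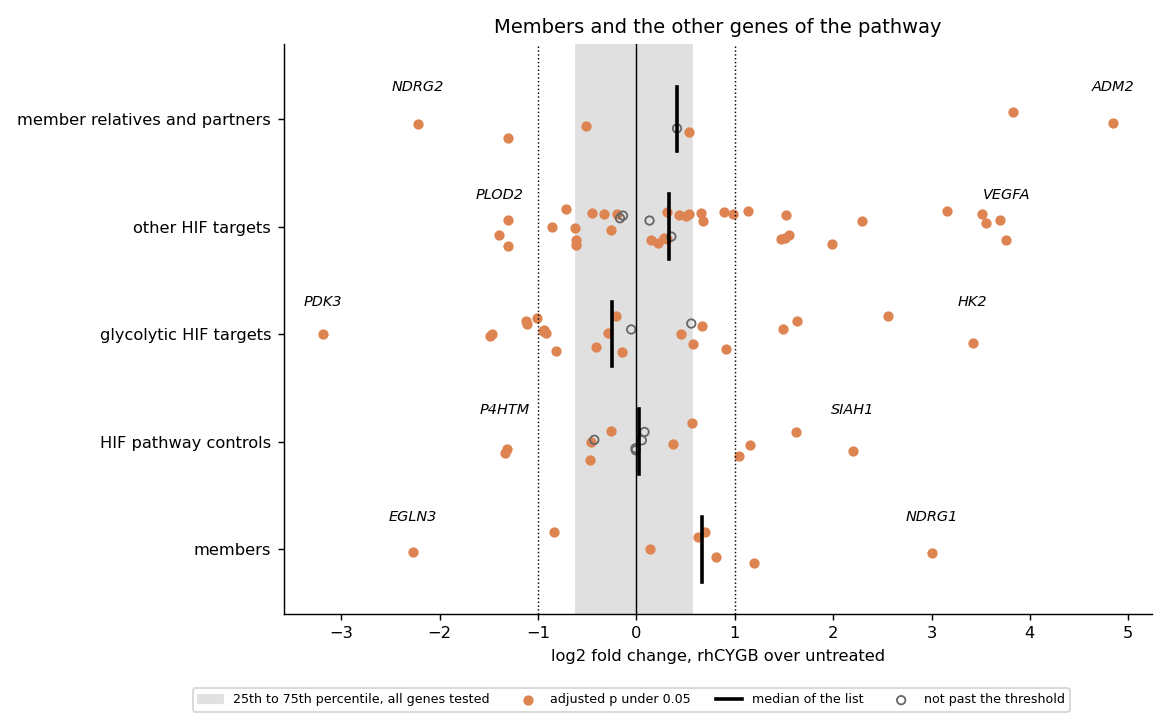
Log2 fold change of rhCYGB over untreated cells (x axis) for each tested gene of the member set and of 4 further gene lists of the pathway. Filled points passed at an adjusted p under 0.05 by edgeR, open circles did not, the black bars are list medians, the grey band is the middle 50% of all genes tested, and dotted lines mark 2-fold. Each list holds genes that rose and genes that fell, and the names mark the lowest and the highest gene of each.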

How the data were processed

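The authors sequenced 3 libraries of untreated and 3 of rhCYGB-treated MIA PaCa-2 cells, made with a stranded mRNA kit. Per the labels and methods, reads were checked with FastQC 0.11.7, mapped with HISAT2 2.1.0 and assembled with StringTie 2.1.3b. The submitters' notes name mm10 as the build although the genes are human, and the build of the tables is not given in the sources used here. Read counts were deposited by the authors per gene and per transcript, not normalized. FPKM values deposited by the authors are scaled to length and depth. Deposited TPM columns were not used. The labels do not say whether libraries came from separate cultures, so p-values measure the spread between these libraries, which may be technical. Whether counting used the strand is not stated.

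Counts of the whole tables were tested with edgeR 4.0.16 (R 4.3.3): filterByExpr, TMM factors, glmQLFit and glmQLFTest, with group as the sole term and all 6 libraries, and Benjamini-Hochberg adjustment over all 14728 genes or 32577 transcripts tested. Of 35993 genes, 15205 were at 0 throughout and the filter removed another 6060. The fitted fold changes use edgeR's default prior count, and SE is the absolute log2 fold change over the square root of F. A prior count of 2 entered only log2 CPM values, which underlie the correlations of same-numbered libraries. Intervals and floors given for pooled counts cover counting error only. Libraries of a group differed beyond counting error (chi-square over degrees of freedom 4.67 to 6.62), so none was a second copy. Scripts were tested on simulated counts.

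The 10 members and all gene lists were chosen with earlier results of these data known. Named were all members, tested HIF control genes, in the other lists the 4 largest rises and 4 largest falls among genes called at 2-fold, overlapping genes and identity markers. BNIP3L, EDN1, CALCRL, RAMP2, RAMP3 and the pseudogenes were named outside this rule after their values were seen. Alternatives were DESeq2 1.42.0 (size factors and Wald test), upper-quartile factors, total counts, no filter, at least 10 counts in every library, limma 3.58.1 on log2(FPKM + 1) and log2(FPKM + 0.1), a replicate block, counts summed from transcripts and leaving out each library. Promoter sequences are from RefSeq (GRCh38.p14) and their positions are not those of the deposited tables. A promoter of NDRG1 and a comparison of the proteins are not reported here.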

Additional observations from a re-analysis of the deposited data

How the results depend on the processing

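With DESeq2 size factors, the replicate block, or any single library left out, the members other than EGLN3 kept their direction and their side of the threshold. HIF1A turned to -0.0046 with upper-quartile factors, -0.028 with total counts, -0.025 with limma on log2(FPKM + 1) and -0.025 on log2(FPKM + 0.1) (adjusted p between 0.517 and 0.917). EGLN3 was lost in 6 of the 15 alternatives that tested it, and with at least 10 counts in every library it was not tested. limma on log2(FPKM + 1) called 1977 genes and 1 member at 2-fold, against 3998 and 3 in the main test, and total counts called 4 members, since EGLN1 reached -1.006. The fold changes from limma understate low genes by construction. Of genes called at 2-fold, 45.9% were higher, and 35.5% and 33.9% with upper-quartile factors and total counts. The median of the glycolytic targets lay between -0.39 and -0.41 and that of the other targets between 0.12 and 0.19 with these 2 scalings and both limma fits.

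The median of the HIF control genes became -0.12 with upper-quartile factors, -0.14 with total counts, -0.091 with limma on log2(FPKM + 1) and -0.13 on log2(FPKM + 0.1), and that of the relatives -0.072 with at least 10 counts in every library, which removes genes. Leaving out each library in turn gave 3982 to 4101 genes at 2-fold, 7 to 8 members called, 2 to 3 members and 3 to 5 member transcripts at 2-fold. Without untreated replicate 2, 3 transcripts were called.

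The replicate numbers are not stated to pair the libraries, and same-numbered libraries did not deviate together (r = -0.05, 0.0072 and 0.0055 over genes). With the replicate block, 8 members were called, 3 at 2-fold, with 3978 genes, and 1 member transcript at 2-fold instead of 6. The cause was not tested. Depth limits EGLN3, CA9 and BNIP3, and 3 libraries a group limit all intervals.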
